A study of Mus musculus with 202 samples.

Results

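Messenger RNA of 33 genes that hold and part chromosomes in meiosis was followed in single mouse oocytes. They comprise the spindle checkpoint (Bub1, Bub1b, Bub3, Mad1l1, Mad2l1, Ttk, Zwilch, Zw10), the kinetochore (Ndc80, Nuf2, Spc24, Spc25, Dsn1, Cenpa, Cenpe, Cenpf) and the chromosomal passenger complex (Aurkb, Aurkc, Incenp, Birc5, Cdca8). They also comprise cohesin subunits (Rec8, Smc1b, Smc3, Stag3), separase and its inhibitor securin (Espl1, Pttg1) and spindle assembly factors (Aurka, Plk1, Tpx2, Tacc3, Ckap5, Numa1). The genes were chosen by symbol for their known function, and all 33 were present among the 23995 gene symbols of the count table. Another 78 genes of the same machinery served as a wider list.

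An oocyte waits at metaphase of the second meiotic division (MII) with its chromosomes aligned on the spindle until fertilisation. Kinetochores bind chromosomes to microtubules, the checkpoint blocks the anaphase-promoting complex while a kinetochore is unattached, and the passenger complex releases faulty attachments. Securin holds separase inactive until anaphase, when separase cuts the cohesin that joins sister chromatids. In mouse oocytes the meiotic form of cohesin is laid down before birth, and transcription is silent at MII, so that the RNA present is a store built during growth.

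Each library was the polyA RNA of 1 MII oocyte of the strain C57Bl/6J, made with Smart-seq2, which reads along the whole transcript and uses no molecular identifiers. Oocytes came from F1, F2 and F3 descendants of F0 females given a control diet (CD) or one high in fat and sugar (HFHS), and treated with vehicle (Veh) or with the androgen dihydrotestosterone (DHT). The title of the series names prenatal androgen exposure and a transgenerational susceptibility to polycystic ovary syndrome. No ages were given. A total of 157 of 202 oocytes reached 100000 gene counts and 4000 genes with a count. In F1 these were 10 of 15 oocytes of CD+Veh, 8 of 15 of CD+DHT, 14 of 15 of HFHS+Veh and 13 of 15 of HFHS+DHT. In F2 they were 16 of 20 of CD+Veh, 25 of 25 of CD+DHT, 20 of 20 of HFHS+Veh and 5 of 5 of HFHS+DHT. In F3 they were 20 of 24 of CD+Veh, 13 of 24 of CD+DHT and 13 of 24 of HFHS+Veh. Titles carried an animal number in F2 CD+Veh (4 animals), F2 CD+DHT (5 animals), F2 HFHS+Veh (4 animals) and F3 HFHS+Veh (2 animals with kept oocytes), which is an inference from how the titles are written. In the other groups no mother can be assigned, and each of these is treated as 1 sample.

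Kept oocytes held 133654 to 16359078 gene counts. Oocyte markers (12 genes) summed to a median of 21152 CPM (counts scaled to a common library total), 26 cumulus and granulosa markers to 1292 CPM and 5 blood markers to 0. Cumulus markers exceeded 7075 CPM (the third quartile plus 3 interquartile ranges) in 3 libraries, at 10463 in F1 HFHS+Veh oocyte 1, at 7696 in oocyte 19 of F3 CD+Veh and at 65347 in oocyte 21 of that group. The last went against its label, with 203 CPM of oocyte markers and 216 CPM of the 33 genes together. Without it the pooled levels of F3 CD+Veh were 1.004 to 1.005 times as high for the 29 of these genes that reached 10 CPM there. In some samples the characteristics contradicted the title. All 15 libraries of F1 HFHS+Veh and all 5 of F2 HFHS+DHT named the other hormone. The generation was contradicted in 8 libraries of F2 HFHS+Veh (5 of animal 10 and 3 of animal 5, naming F3) and in 8 of F3 HFHS+Veh (animal 22, naming F2, of which 5 were kept). Generations differed in library quality. Median gene counts were 972734 in F1, 3411646 in F2 and 1305465 in F3, median genes with a count 9539, 10036 and 7606, and median cumulus markers 1448, 892 and 2535 CPM.

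Promoters of cell cycle genes often carry a CCAAT box and a cell cycle homology region (CHR), elements that many genes of mitosis share, so both motifs were looked for. RefSeq promoters on GRCm38.p6, each from 250 bases before to 50 after a start, were found for 28 of the 33 genes, 30 promoters in all. The CHR, searched as TTTGAA on both strands, was in 14 of the 30 (46.7%) and in 17.9% of all 32851 promoters. CCAAT, searched on both strands, was in 18 of the 30 (60%) and in 37.4% of all promoters. Both occurred together in 12 of the 30 (40%) and in 6.95% of all. The 120 bases before the start are shown for some of the genes whose window lay wholly upstream of the annotated gene. They are Ckap5 with both motifs, Aurka and Spc25 with a pair of CCAAT boxes each, and Ndc80 and Nuf2 with neither in this stretch. Other genes that meet this rule, such as Bub1b and Ttk, are not shown. Capitals mark the motifs and the runs are given 5′ to 3′ on the gene's strand.
Ckap5, chr2:91526642-91526761, plus strand: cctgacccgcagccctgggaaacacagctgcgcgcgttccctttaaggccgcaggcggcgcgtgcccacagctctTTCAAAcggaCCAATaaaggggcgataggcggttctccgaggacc
Aurka, chr2:172370571-172370690, minus strand: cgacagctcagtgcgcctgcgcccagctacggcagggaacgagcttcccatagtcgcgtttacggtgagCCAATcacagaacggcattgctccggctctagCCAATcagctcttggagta
Spc25, chr2:69206214-69206333, minus strand: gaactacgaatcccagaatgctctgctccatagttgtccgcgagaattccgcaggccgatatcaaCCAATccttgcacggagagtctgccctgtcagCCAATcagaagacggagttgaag
Ndc80, chr17:71526858-71526977, minus strand: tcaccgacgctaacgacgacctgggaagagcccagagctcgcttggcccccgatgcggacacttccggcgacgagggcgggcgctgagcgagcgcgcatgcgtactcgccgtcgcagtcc
Nuf2, chr1:169531465-169531584, minus strand: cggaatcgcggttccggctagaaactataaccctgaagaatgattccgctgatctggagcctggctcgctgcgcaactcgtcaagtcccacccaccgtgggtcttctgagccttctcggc
The subunits of the Ndc80 complex thus did not share these letters in this stretch, although Spc25 and Ndc80 each held a CHR just after the start, at positions 24 and 29. A match of letters is a description and shows no binding.

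Securin RNA was the most abundant of all genes by its median over all kept eggs, and the genes of this machinery spanned the whole range of abundance. Levels are compared between genes only on the deposited RPKM scale, reads per kilobase of gene scaled to library depth. Pttg1 (chromosome 11, 43420250 to 43426251, minus strand) had a median of 10467 RPKM over the 157 oocytes, from 47.7 in F3 CD+Veh oocyte 21 to 26824. Its median was 11765 RPKM in F1, 13192 in F2 and 3365 in F3. Over all 157 oocytes it ranked 1 of 23995, and ranks within a generation were not computed. Next came Mad2l1, the checkpoint protein that captures the activator of the anaphase-promoting complex, with a median of 740 RPKM (rank 72, 16.01 to 1850). Bub1b, the pseudokinase BubR1 of the same inhibitory complex, followed with 491 RPKM (rank 107, 2.75 to 1039). At the other end, Aurkb had a median of 3.31 RPKM, and Rec8 and Stag3 had medians of 0. In all, 16 of the 33 genes ranked among the 1000 most abundant genes, 15 had a count in each of the 157 oocytes and 25 in at least all but 2. Together they took 1.71% of all gene counts, and 0.994% without Pttg1.

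**Figure D1:**
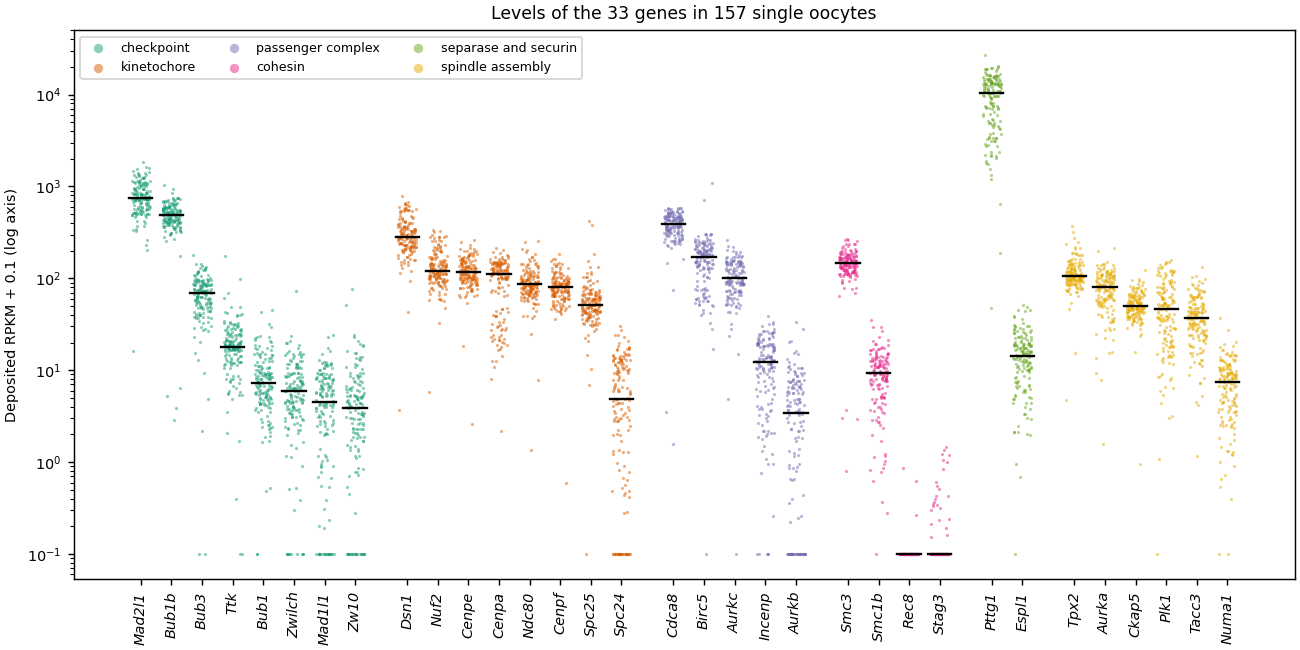
RPKM plus 0.1 on a log axis for each of the 33 genes in each of 157 oocytes (points), grouped by role, with a black bar at the median. Pttg1 stands at a median of 10467 RPKM, 733 times that of Espl1, while Rec8 and Stag3 lie at 0 in most oocytes.

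Among checkpoint genes, transcripts of Mad2l1, Bub1b and Bub3, which form the inhibitory complex, were more abundant than those of Bub1 and Mad1l1, which place it at the kinetochore. Bub3, the WD-repeat partner of Bub1 and Bub1b, had a median of 69.2 RPKM, and Ttk (Mps1), the kinase that starts checkpoint signalling, had 17.9. Bub1, the kinase that brings the checkpoint proteins to the kinetochore, had 7.22 RPKM. Bub1b exceeded Bub1 in 155 of 157 oocytes, with a ratio of medians of 68.0. Mad1l1, which holds Mad2l1 at unattached kinetochores, had 4.403 RPKM and was below Mad2l1 in all 157 oocytes, with a ratio of medians of 168. Zwilch (5.85) and Zw10 (3.81), which recruit dynein and Mad1l1 to kinetochores, were of the same low order.

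In the kinetochore group Dsn1 led with 281 RPKM. It is a subunit of the Mis12 complex, which links the centromere to the Ndc80 complex. The 4 subunits of the Ndc80 complex, the main microtubule coupler, had unequal RNA levels: Nuf2 122, Ndc80 85.6, Spc25 51.7 and Spc24 4.80 RPKM. Nuf2 exceeded Spc24 in 157 oocytes, Ndc80 in 156 and Spc25 in 156, with ratios of medians of 25.35, 17.8 and 10.8. For Ndc80, 5.34% of the 50-base windows of the transcript occur in other genes, chiefly a near copy that has its own entry in the table. Its level is therefore uncertain, to an extent that was not measured. Cenpe, the kinetochore kinesin, had a median of 117 RPKM and Cenpa, the histone H3 variant that marks centromeres, 111. Cenpf, a large kinetochore protein, had 80.9. These medians over all oocytes hid a difference by generation. In F1, F2 and F3, Cenpe was at 97.9, 106 and 162 RPKM, Cenpa at 118, 124 and 27.6 and Cenpf at 72.7, 88.2 and 71.5.

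The meiotic Aurora kinase gene outnumbered its mitotic counterpart. Aurkc (chromosome 7, 6995300 to 7003091) had a median of 99.6 RPKM and Aurkb (chromosome 11, 69045647 to 69051664) 3.31, and Aurkc was higher in 156 of 157 oocytes. Of the 50-base windows of Aurkc, 63.7% occur in other genes, mainly the processed pseudogene Gm12463, so its level is uncertain, whereas Aurkb shares 0%. The other passenger genes were Cdca8, encoding borealin (389 RPKM, rank 148), Birc5, encoding survivin (170, rank 384), and Incenp, the scaffold that binds the kinase (12.2). The kinase scaffold was thus the least abundant of the non-catalytic subunits.

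Transcripts of the meiosis-specific cohesin subunits Rec8 and Stag3 were close to absent, while those of general cohesin were present. Rec8 (chromosome 14, 55618037 to 55625395), the meiotic kleisin that separase cuts, had 8 counts in 3 of the 157 oocytes, all in F1 HFHS+Veh. In the other 10 groups its 0 counts allow up to 0.0309 to 0.392 CPM (3 counts in each pool, counting error only). Stag3 had 185 counts in 25 oocytes. The mitotic kleisin Rad21 had a median of 81.1 RPKM and exceeded Rec8 in all 157 oocytes, and it exceeded Rad21l, the other meiotic kleisin, in all 157 as well, Rad21l having counts in 47. Stag2 (11.3 RPKM) exceeded Stag3 in 157 oocytes and Stag1 (6.57) in 156. Smc1b, the meiotic partner of Smc3, was detected in 156 oocytes at a median of 9.17 RPKM, against 17.9 for its mitotic counterpart Smc1a, which was higher in 133 oocytes and lower in 23. Smc3, common to both forms, had 147 RPKM.

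Separase and its inhibitor differed most. Espl1 (chromosome 15, 102296266 to 102324357) had a median of 14.28 RPKM, below Pttg1 in 157 of 157 oocytes. Among spindle assembly genes, Tpx2, which activates Aurora A on spindle microtubules, had 105 RPKM, Aurka itself 80.0, and Ckap5, a microtubule polymerase, 49.4. Plk1, a kinase needed for spindle assembly, had 45.9 RPKM. Of its 50-base windows 6.84% occur in the processed pseudogene Plk-ps1, so its level is uncertain, to an extent that was not measured. Tacc3, which joins Ckap5 and clathrin on spindle fibres, had 36.7 RPKM, and Numa1, which gathers microtubule ends at the poles, 7.405. Counting did not state the use of strand, and exons of Mad1l1, Zwilch, Cdca8, Plk1, Tacc3 and Numa1 overlap genes on the opposite strand, so reads of those partners may be included.

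The spread from egg to egg ranged widely within the group. Over 61 F2 oocytes of 13 animals, the log2 standard deviation (SD) between oocytes of an animal had a median of 0.67 over the 30 genes of at least 10 CPM, against 0.87 over 5938 genes of that level. Between animals of a group the medians were 0.28 and 0.31. At 100 CPM or more the 19 genes and the 1865 genes were closer, at 0.47 and 0.48. The smallest spread between oocytes was that of Ckap5 (0.28), Nuf2 (0.36) and Pttg1 (0.37). The largest was that of Spc24 (1.41), Zwilch (1.33) and Mad1l1 (1.26), at 12.3, 17.55 and 13.9 CPM on average. More abundant genes also reached 1 or more. They were Incenp (1.22 at 55.2 CPM), Bub3 (1.20 at 105 CPM), Aurkc (1.17 at 159 CPM), Plk1 (1.07 at 112 CPM) and Cdca8 (1.05 at 626 CPM). Bub1b was at 0.93 with 1895 CPM. For Cdca8 and Bub1b this SD rests in part on a low extreme in F2 HFHS+Veh animal 4. Its lowest values were 2.35 CPM of Cdca8 and 18.8 of Bub1b, and 0 for Bub3 and Aurkc. Oocytes of the other F2 animals ran from 382 to 924 CPM for Cdca8 and from 649 to 3782.5 for Bub1b. Oocyte 2 of animal 4 had 6075 CPM of oocyte markers, the fewest in F2.

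**Figure D2:**
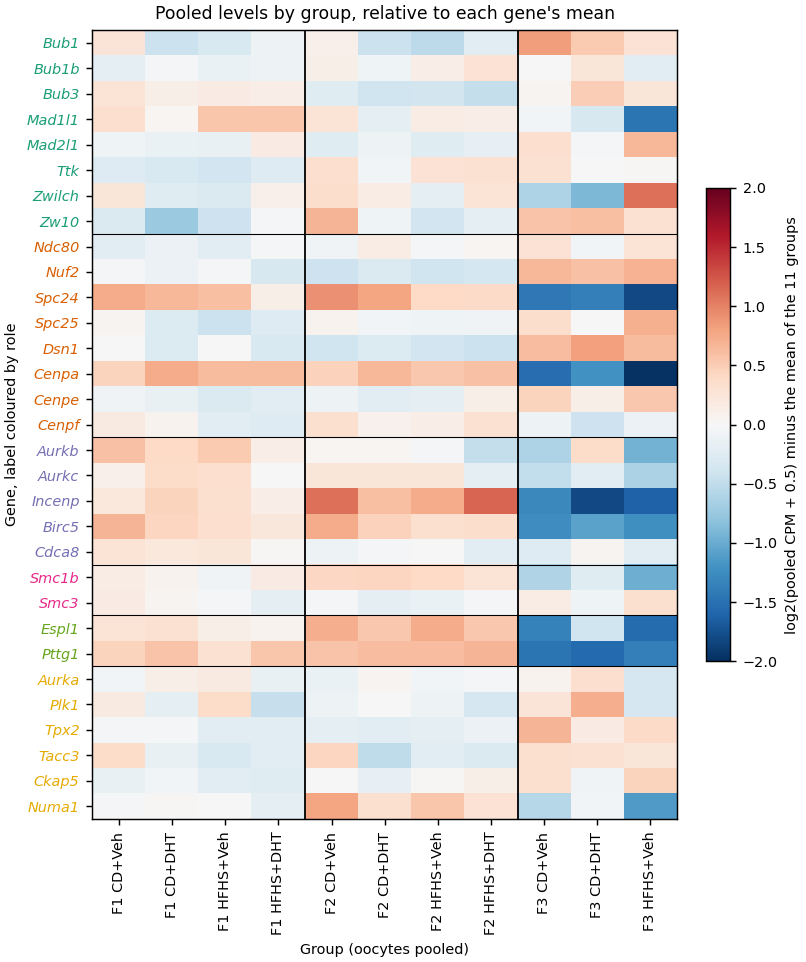
Log2 of pooled CPM plus 0.5 in each of the 11 groups, minus the mean over groups, for 31 of the genes (colour, from −2 to 2; Rec8 and Stag3 are not drawn). The 3 F3 columns stand apart: Pttg1 lies at 2021 to 2280 CPM there and at 7312 to 9441 CPM in the 8 other groups.

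The F2 groups with named animals allow a test between animals of lineages that differ in the diet or hormone of the F0 female. None of the group was called. Counts were summed per animal and 32 of the 33 genes entered the edgeR fit, Rec8 having too few counts. Called in each of the 3 contrasts were 0 of 32, against a background of 0% of 11962 genes (adjusted p under 0.05, edgeR), so the count says nothing particular about the group. At an unadjusted p under 0.05 edgeR listed 220 genes for CD+DHT against CD+Veh, 118 for HFHS+Veh against CD+Veh and 125 for CD+DHT against HFHS+Veh, of which 2, 1 and 0 were in the group. DESeq2 called 2, 1 and 1 genes, 0 of them in the group. The median log2 fold of the 32 genes was 0.02, −0.0028 and 0.04, and that of all genes −0.01, 0.02 and −0.02. Intervals of 1.96 standard errors (SE) to each side approximate 95% by the normal distribution. They lay within a 2-fold change in either direction for 28, 28 and 27 of the 32 genes, and within 1.5-fold for 14, 11 and 16. The edgeR test has wider tails, so these intervals are somewhat narrow and the counts are upper limits. The libraries of one animal come from one mother, and p-values measure the spread between these animals. Their F0 founders are not named and may be shared within a group. The p-values therefore do not measure the spread between treated F0 females.

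Tacc3 (chromosome 5, 33658128 to 33678995) had the lowest p of the group. In F2 CD+Veh it was at 86.9 CPM in animal 13, 77.1 in animal 14, 155 in animal 2 and 233 in animal 3. In F2 CD+DHT it was at 97.0 CPM in animal 17, 75.4 in animal 6, 63.8 in animal 7, 75.1 in animal 8 and 50.5 in animal 9. In F2 HFHS+Veh it was at 135 CPM in animal 10, 96.1 in animal 19, 70.4 in animal 4 and 88.7 in animal 5. The high values came from animals 2 and 3, and the 3 groups overlapped. The means were 138 ± 72.2 CPM (SD, n = 4) for CD+Veh, 72.4 ± 17.12 (n = 5) for CD+DHT and 97.6 ± 27.3 (n = 4) for HFHS+Veh. CD+DHT against CD+Veh gave a log2 fold of −0.71 (SE 0.27), with an edgeR p of 0.018 that became 0.9999 after adjustment over all genes.

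Ndc80 was the other gene under 0.05 before adjustment in that contrast. It was at 151, 189, 152 and 211 CPM in CD+Veh animals 13, 14, 2 and 3. In F2 CD+DHT Ndc80 was at 209, 179, 198, 280.1 and 216 CPM in animals 17, 6, 7, 8 and 9. These ranges overlapped, with animal 8 alone above all CD+Veh animals by a wide margin. The log2 fold was 0.46 (SE 0.20; edgeR p of 0.031, adjusted p of 0.9999).

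Birc5 did not overlap between F2 HFHS+Veh and F2 CD+Veh. It was at 159, 214, 162 and 164 CPM in HFHS+Veh animals 10, 19, 4 and 5 and at 219, 218, 259 and 277 CPM in CD+Veh animals 13, 14, 2 and 3. All 4 HFHS+Veh animals were thus lower, animal 19 by a narrow margin. Of the 30 genes of at least 10 CPM, Birc5 alone had animals that did not overlap in this contrast, beside 0.249% of all 6029 such genes higher and 0.713% lower. The log2 fold was −0.40 (SE 0.17; edgeR p of 0.034, adjusted p of 0.99997). CD+DHT animals 17, 6, 7, 8 and 9 were at 223, 216, 182, 191 and 157 CPM and overlapped both. Between CD+DHT and CD+Veh 0 of the 30 did not overlap, beside 0.185% of 5947 genes higher and 0.504% lower. Between CD+DHT and HFHS+Veh it was 1 of 30, Spc24, at 12.07, 13.51, 16.9, 12.8 and 14.04 CPM against 4.09, 11.8, 10.99 and 11.04, beside 0.221% of 5885 genes higher and 0.34% lower.

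The other named estimates included 3 low genes with wide errors, Mad1l1, Zw10 and Spc24, and the more abundant Tacc3 and Ttk. For CD+DHT against CD+Veh they were Mad1l1 (−0.60, SE 0.45) and Zw10 (−0.54, SE 0.74), where CD+DHT animal 9 had 0 CPM. For HFHS+Veh against CD+Veh they were Zw10 (−0.60, SE 0.79), Spc24 (−0.54, SE 0.38) and Tacc3 (−0.31, SE 0.29). For CD+DHT against HFHS+Veh they were Spc24 (0.67, SE 0.36), Mad1l1 (−0.49, SE 0.45), Tacc3 (−0.41, SE 0.27) and Ttk (−0.35, SE 0.26). Spc24 in HFHS+Veh was at 4.09 CPM in animal 10 and at 10.99 to 11.8 in the other 3 animals, and leaving out animals moved its fold against CD+Veh between −0.80 and −0.29. Without HFHS+Veh animal 10, Ttk gave 0.00057 for CD+DHT against HFHS+Veh.

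**Figure D3:**
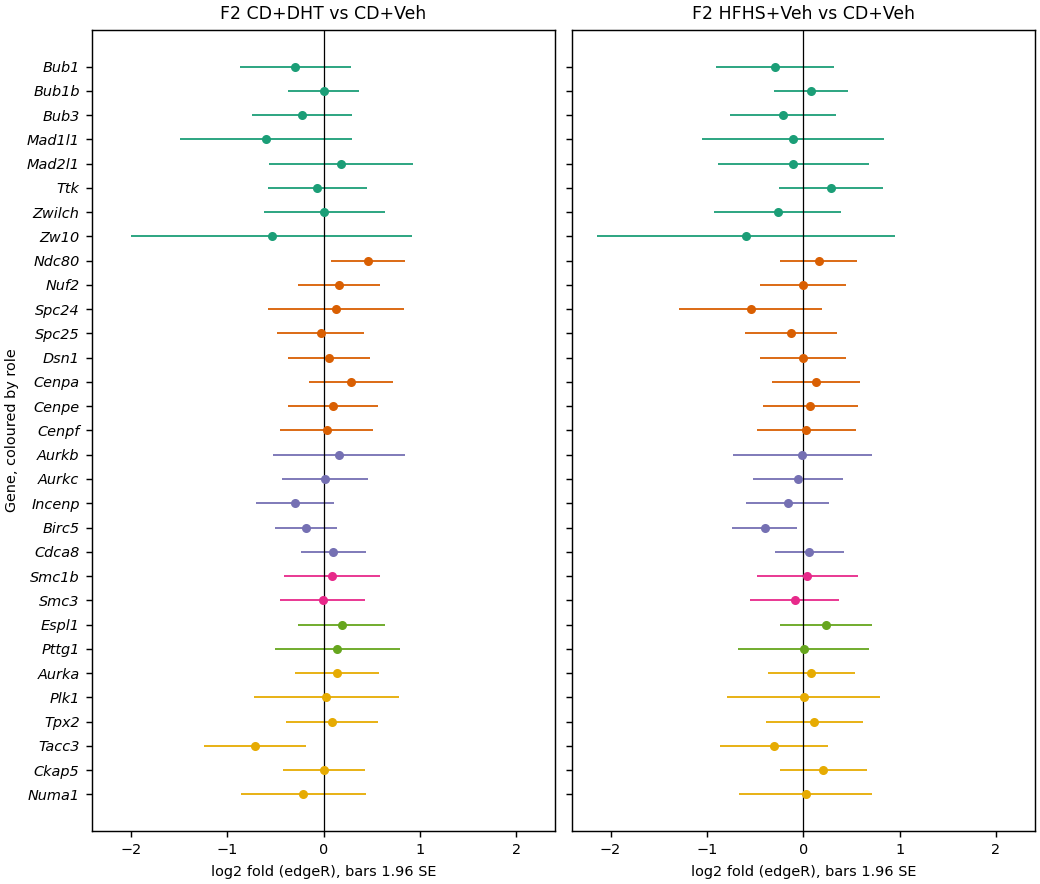
Log2 fold with 1.96 SE to each side for 31 of the genes in F2 CD+DHT against CD+Veh and in F2 HFHS+Veh against CD+Veh, from counts summed per animal (4, 5 and 4 animals). Intervals of Tacc3, Ndc80 and Birc5 leave 0 in 1 of the 2 contrasts, and no gene passed the adjusted threshold.

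The wider list told the same: 77 of the 78 further genes of the machinery were tested and 0 were called in each F2 contrast, with medians of 0.02, 0.02 and 0.01. The largest estimates at 10 CPM or more for CD+DHT against CD+Veh were Hmmr (−0.68, SE 0.39), Cdk5rap2 (−0.63, SE 0.28), Cenpc1 (0.54, SE 0.30) and Clasp2 (0.77, SE 0.62). For HFHS+Veh against CD+Veh they were Hmmr (−0.64, SE 0.41), Mau2 (−0.63, SE 0.46), Haus1 (0.53, SE 0.43) and Rcc1 (0.65, SE 0.33). For CD+DHT against HFHS+Veh they were Cdk5rap2 (−0.44, SE 0.28), Clasp1 (−0.39, SE 0.27), Ube2c (0.55, SE 0.25) and Clasp2 (0.81, SE 0.62).

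Animals of one F2 group differed widely from each other. In CD+Veh, Pttg1 was at 11286 and 12745 CPM in animals 13 and 14 and at 7241 and 5466 in animals 2 and 3, and Mad2l1 followed with 1476 and 1600 against 869 and 543. Plk1 went the other way with 85.4 and 61.4 against 197 and 160.3 CPM, as did Numa1 with 40.3 and 45.5 against 99.5 and 157. In CD+DHT animal 9, Plk1 was at 41.0 and Numa1 at 23.7 CPM, the lowest of that group, and Pttg1 (11726) and Mad2l1 (1680) were its highest. HFHS+Veh animal 10 repeated this, with 39.7 CPM of Plk1, 43.6 of Numa1 and 11017 of Pttg1. These 4 animals with high Pttg1 and low Plk1 had fewer genes with a count in the median oocyte: 9817 in animal 13, 9241 in animal 14, 7771 in animal 9 and 8447 in animal 10, against 11403 and 11993 in animals 2 and 3. Animal 17 of CD+DHT, with 9182 genes, was at 8002 CPM of Pttg1 and 158 of Plk1. The part of the number of genes in these levels was not tested.

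**Figure D4:**
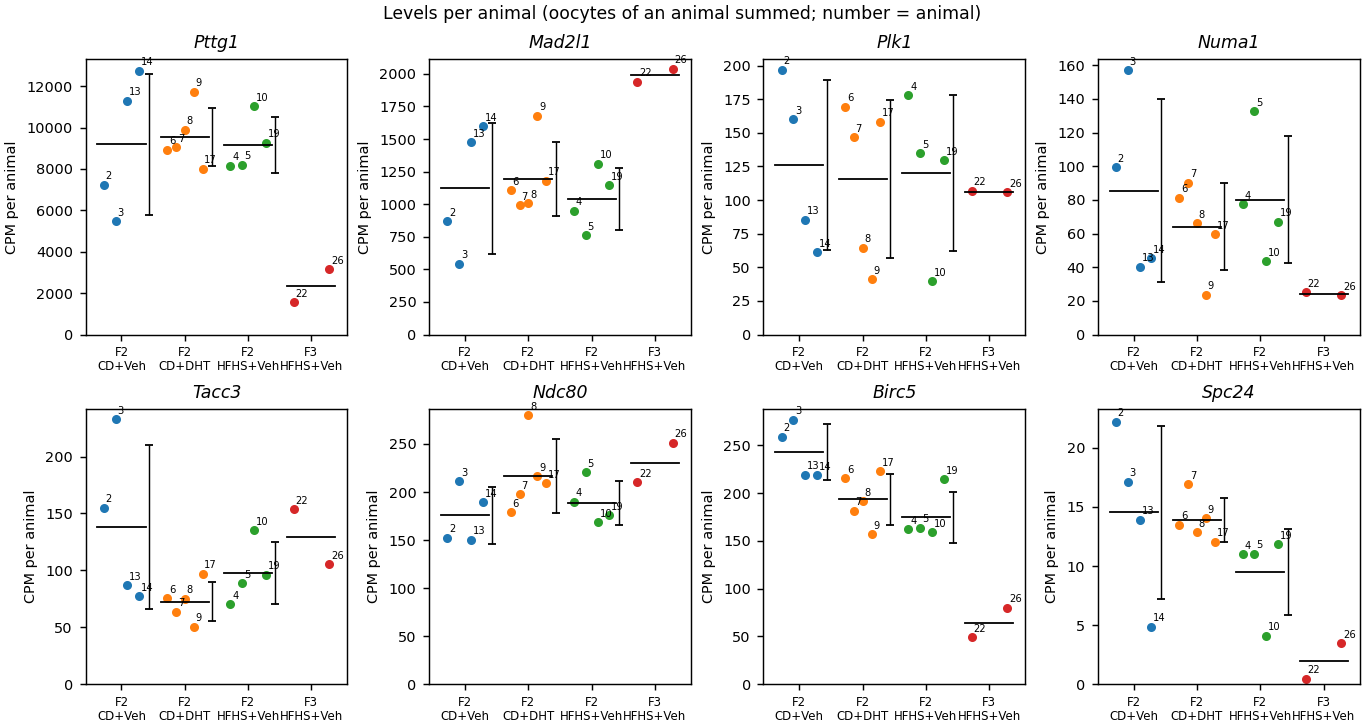
CPM per animal for 8 of the genes in F2 CD+Veh, F2 CD+DHT, F2 HFHS+Veh and F3 HFHS+Veh, each number marking an animal, with a line at the mean and a bar of 1 SD where a group has more than 2 animals. F2 groups overlap for all but Birc5 (HFHS+Veh against CD+Veh) and Spc24 (CD+DHT against HFHS+Veh), and the 2 F3 animals lie below all 13 F2 animals for Pttg1 (1555 and 3154 CPM) and Birc5 (48.9 and 80.0 CPM).

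In F1 no mother was named, so each group was 1 pool of oocytes and no test was possible. Values below are pooled CPM, with exact Poisson 95% intervals that cover counting error only, and a difference is described as past 1.5-fold among genes with a mean of at least 10 CPM. Few of the group were past it in F1. For CD+DHT against CD+Veh, 0 of 30 genes were higher by that much and 1 of 30 lower, beside 4.43% and 5.43% of all 5853 genes. For HFHS+Veh against CD+Veh, it was 0 and 1 of 31, beside 3.85% and 2.6% of 5919 genes. For HFHS+DHT against CD+Veh, it was 0 and 2 of 31, beside 4.19% and 7.85% of 5844 genes. For HFHS+DHT against HFHS+Veh, it was 0 and 1 of 31, beside 1.91% and 6.51% of 5867 genes. These shares are near those of all genes. The median log2 folds of the group were −0.07, −0.12, −0.15 and −0.03 and those of all genes −0.01, −0.02, −0.04 and −0.02. The first 3 of these contrasts share the CD+Veh oocytes, and the hormone label of HFHS+Veh was contradicted in every library.

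Bub1 and Tacc3 were highest in the F1 control pool. Bub1 oocytes ran from 31.6 to 68.9 CPM (median 44.1) in F1 CD+Veh, from 18.6 to 59.3 (29.9) in F1 CD+DHT and from 14.9 to 44.9 (26.52) in F1 HFHS+Veh. The ranges overlapped. Pooled Bub1 was 43.7 CPM (40.9 to 46.5) in CD+Veh. CD+DHT held 26.71 (23.2 to 30.6) and HFHS+Veh 29.3, log2 folds of −0.70 and −0.57. Without F1 CD+DHT oocyte 6 the first was −0.42. Pooled Tacc3 was at 143 CPM (139 to 149) in CD+Veh, whereas CD+DHT held 99.6 (log2 fold −0.52) and HFHS+Veh 89.5 (86.7 to 92.4; −0.68). Its oocytes ran from 11.6 to 227 CPM in CD+Veh and from 23.4 to 159 in HFHS+Veh, so they overlapped. Without F1 HFHS+Veh oocyte 1, the library with many cumulus markers, the latter was −0.58, and without F1 CD+Veh oocyte 1 it was −0.49.

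Plk1 was lowest in the F1 HFHS+DHT pool. Its oocytes ran from 18.02 to 217 CPM there (median 52.4), from 39.0 to 288 in HFHS+Veh (149.9) and from 6.89 to 282 in CD+Veh (123), overlapping throughout. Pooled Plk1 was 97.2 CPM (92.6 to 102) against 153 in CD+Veh (log2 fold −0.65) and 173 in HFHS+Veh (−0.83). The first was −0.29 without F1 CD+Veh oocyte 6 and −1.18 without F1 HFHS+DHT oocyte 10. The other was −0.53 without F1 HFHS+Veh oocyte 11 and −1.36 without F1 HFHS+DHT oocyte 10. Spc24 was at 8.34 CPM in HFHS+DHT, against 13.09 in CD+Veh (−0.62, or −0.46 without F1 HFHS+DHT oocyte 6) and 11.8 in HFHS+Veh (−0.48).

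The largest differences upward in F1 were small. They were Cenpa (187 against 152 CPM, log2 fold 0.30) and Aurkc (192 against 160.1, 0.26) for CD+DHT, and Aurka (190.3 against 161, 0.24) and Aurkc (189, 0.23) for HFHS+Veh, each against CD+Veh. For HFHS+DHT they were Mad2l1 (1401 against 1176 CPM, 0.25) and Zw10 (13.304 against 11.1, 0.25) compared with CD+Veh, and Zwilch (18.2 against 13.8, 0.38) and Zw10 (13.304 against 10.13, 0.38) compared with HFHS+Veh. Zw10 against CD+Veh turned to −0.31 when each oocyte had equal weight. Of the wider list, 0 and 2 genes were past 1.5-fold higher and lower for CD+DHT (61 measured), 0 and 2 for HFHS+Veh (60), 1 and 3 for HFHS+DHT (61) against CD+Veh, and 2 and 1 for HFHS+DHT against HFHS+Veh (61). Among its genes, Haus8 of the augmin complex was at 27.6 CPM in CD+Veh and at 15.2 in HFHS+Veh and 12.6 in HFHS+DHT. Cdk5rap2, a centrosome protein, was at 48.7 CPM in CD+Veh, against 29.9 for CD+DHT and 27.3 for HFHS+Veh. Clasp2, which stabilises microtubule ends, was at 517 CPM in HFHS+DHT and 311 in CD+Veh.

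In F3 the groups were again pools without a test, as only HFHS+Veh titles carried animal numbers. For CD+DHT against CD+Veh, 1 of 28 genes was past 1.5-fold higher and 0 lower, beside 11.9% and 10.9% of 5596 genes. For HFHS+Veh against CD+Veh, 1 of 28 was past it in each direction, beside 7.96% and 15.3% of 5417 genes. These shares are below those of all genes. The median log2 folds were −0.05 and −0.05, against 0.03 and −0.04 for all genes. The first became 0.15 when each oocyte had equal weight. The 2 contrasts share the F3 CD+Veh oocytes, among them oocyte 21.

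Separase RNA was higher in F3 CD+DHT than in F3 CD+Veh. Espl1 oocytes ran from 19.46 to 167 CPM (median 63.4) in CD+DHT and from 0 to 80.7 (32.5) in CD+Veh, with overlap. The pools held 72.4 CPM (70.0 to 74.9) and 37.2 (35.6 to 38.8), a log2 fold of 0.95, between 0.79 and 1.16 with each oocyte left out. The other large ones were Numa1 (51.9 against 36.0 CPM, 0.52), Incenp (9.02 against 13.17, −0.52) and Tpx2 (534 against 761, −0.51). Incenp turned to 0.64 when each oocyte had equal weight, so its direction depended on the deepest libraries.

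Zwilch was high in the F3 HFHS+Veh pool. Its oocytes ran from 5.67 to 184 CPM (median 22.72), against 0 to 49.4 (8.25) in F3 CD+Veh, with overlap. The pools held 37.2 CPM (33.003 to 41.8) and 10.95 (10.13 to 11.8), a log2 fold of 1.72, which was 1.16 without oocyte 1 of animal 26 and 2.01 without F3 CD+Veh oocyte 5. Spc25 was at 117 against 91.1 CPM (0.36), Numa1 at 24.4 against 36.0 (−0.55) and Plk1 at 106 against 161 (−0.60). Plk1 was −0.39 without F3 CD+Veh oocyte 3 and turned to 0.48 between the medians of oocytes, 109.9 and 78.6 CPM. Of the wider list, 4 genes were past 1.5-fold higher and 8 lower for CD+DHT (57 measured), with Ska3 (1.73), Nek2 (1.39), Pds5a (−1.37) and Haus5 (−1.33) the largest, and 4 and 3 for HFHS+Veh (55), with Cenpi (0.996), Ska2 (0.91), Haus5 (−2.25) and Gsg2 (−0.94) the largest.

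Larger differences separated the generations. Pooled levels in the 3 F3 groups lay outside those of all 8 F1 and F2 groups for several genes. The share of all genes that did so was not counted. Shifts between generations were common: 26.09% of 6036 genes were past 1.5-fold higher and 35.5% lower in F3 than in F2 for CD+Veh. For CD+DHT these shares were 29.3% and 29.6% of 5901 genes. Cenpa, the centromeric histone (chromosome 5, 30666777 to 30674830), was at 28.1 to 48.1 CPM in F3 and 152 to 187 in F1 and F2. Incenp (chromosome 19, 9872296 to 9899551) was at 9.02 to 13.17 and 36.1 to 74.2 CPM, and Birc5 at 61.9 to 69.9 and 173 to 247. Espl1 was at 32.6 to 72.4 against 99.8 to 159.6 CPM and Spc24 at 1.83 to 2.63 against 8.34 to 14.8. The opposite held for Dsn1 (chromosome 2, 156995265 to 157007154), at 1143 to 1319 CPM in F3 and 551 to 754 in F1 and F2, and for Nuf2 (chromosome 1, 169497934 to 169531464), at 486 to 529 and 244 to 319.

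The single oocytes behind these pools are described here, without F3 CD+Veh oocyte 21. They are the same data again and no separate support, and oocytes are not replicates of a generation. Pttg1 ran from 321 to 7657 CPM (median 2360) in 45 F3 oocytes and from 2262 to 19154 (9089) in 111 F1 and F2 oocytes, and all 45 lay below the earlier median. Cenpa ran from 10.6 to 156 CPM (36.9) against 28.2 to 286 (164), and Birc5 from 16.2 to 165 (61.4) against 56.6 to 1064 (187), again with all 45 below. Dsn1 ran from 565 to 1800 CPM (1078) against 96.5 to 935 (551), and Nuf2 from 319.7 to 797 (480.5) against 78.7 to 509 (259), with all 45 above. Ranges overlapped in each, and the share of all genes with such a split between oocytes was not counted. Incenp, Espl1, Spc24 and Aurkc were below in 42 of 45, and Cenpe was above in 43 of 45. The kinetochore group was thus mixed, with Cenpa and Spc24 low and Dsn1, Nuf2 and Cenpe high in the same oocytes.

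Only the HFHS+Veh lineage has named animals in F2 (animals 10, 19, 4 and 5) and F3 (animals 22 and 26), and the contrast was added after the pooled differences had been seen. It tests the same difference in part of the same oocytes. The edgeR fit called 3277 of 13314 genes, 9.91% higher and 14.7% lower in F3, and among the 5902 genes of at least 10 CPM 20.6% were higher and 23.2% lower. In the group 14 of 32 genes were called, 6 higher and 8 lower. Of its 29 genes of at least 10 CPM these were 6 and 7, shares close to those of all genes at that level. With the DESeq2 size factors in edgeR the calls were 10 higher and 7 lower, beside 12.4% and 13.02% of the 13314 genes in that fit. The shares among genes of at least 10 CPM, which were higher in the main fit, were not counted with these factors. The median log2 fold of all genes was −0.35 in place of −0.50, so directions of small changes depend on the scaling.

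**Figure D5:**
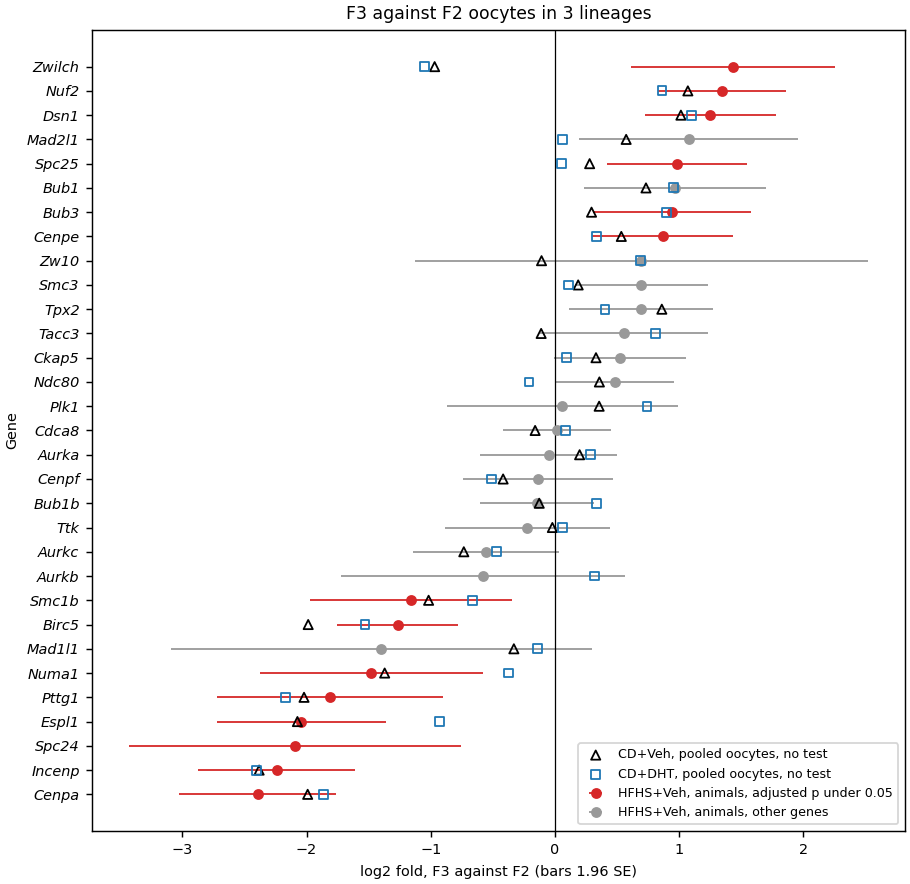
Log2 fold of F3 over F2 for 31 genes: HFHS+Veh from counts summed per animal (circles with 1.96 SE to each side, red where the edgeR adjusted p is under 0.05), and the pools of CD+Veh (triangles) and CD+DHT (squares), which have no test. Cenpa and Incenp lie near −2 in all 3 lineages and Dsn1 and Nuf2 near 1, while Zwilch is at 1.43 in HFHS+Veh and at −0.97 and −1.05 in the pools.

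The 8 genes that fell in F3 HFHS+Veh came from several roles. Cenpa was at 170.2, 156, 189 and 148 CPM in F2 animals 10, 19, 4 and 5 and at 29.4 and 26.49 in F3 animals 22 and 26, a log2 fold of −2.39 (SE 0.32, edgeR adjusted p of 4.38e-05). Incenp was at 39.9, 47.8, 71.8 and 67.1 against 10.26 and 10.37 CPM, a log2 fold of −2.24 (SE 0.32, edgeR adjusted p of 7.39e-05). Espl1 was at 99.96, 143, 177 and 222 against 23.9 and 43.2 CPM, a log2 fold of −2.04 (SE 0.35, edgeR adjusted p of 0.000337). For each of these 3 genes both F3 animals lay below all 13 F2 animals. Securin fell with separase: Pttg1 was at 11017, 9257, 8149 and 8207 against 1555 and 3154 CPM, a log2 fold of −1.81 (SE 0.46, edgeR adjusted p of 0.0077). Birc5, at 159, 214, 162 and 164 against 48.9 and 80.0 CPM, gave −1.27 (SE 0.25, edgeR adjusted p of 0.0011). The remaining 3 were Spc24 (−2.09, SE 0.68), Numa1 (−1.48, SE 0.46) and the meiotic cohesin gene Smc1b (−1.16, SE 0.42), with edgeR adjusted p of 0.031, 0.024 and 0.049. Spc24 rested on very few counts, at 0.477 and 3.46 CPM in the F3 animals.

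The 6 genes that rose were 4 kinetochore genes and 2 of the checkpoint. Nuf2 was at 212, 286, 262 and 182 CPM in F2 animals 10, 19, 4 and 5 and at 521 and 539 in F3 animals 22 and 26, a log2 fold of 1.35 (SE 0.26, edgeR adjusted p of 0.0010). Dsn1 was at 463, 636, 614 and 489 against 1259 and 1038 CPM, a log2 fold of 1.25 (SE 0.27, edgeR adjusted p of 0.0022). Spc25 (0.99, SE 0.29), Cenpe (0.87, SE 0.29), Zwilch (1.43, SE 0.42) and Bub3 (0.94, SE 0.33) had edgeR adjusted p of 0.017, 0.034, 0.017 and 0.042. Both F3 animals were above all 13 F2 animals for 8 of the 30 genes of at least 10 CPM and below them for 7, beside 19.47% and 26.9% of all 5954 such genes, which are shares of the same order. The Ndc80 complex split, with Nuf2 and Spc25 higher, Spc24 lower and Ndc80 itself at 0.48 (SE 0.24, edgeR adjusted p of 0.17).

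The other lineages gave the same sign for most of these genes. Of the 8 that fell, 7 were below 0 in the CD+Veh and CD+DHT pools and 6 were past 1.5-fold lower in both (Cenpa, Incenp, Espl1, Pttg1, Birc5 and Smc1b), while Spc24 was under 10 CPM there. Of the 6 that rose, 5 were above 0 in both pools and 2 were past 1.5-fold higher in both (Nuf2 and Dsn1). For CD+Veh, 4 of 29 genes were past 1.5-fold higher and 9 lower, beside 26.09% and 35.5% of 6036 genes. For CD+DHT, 7 of 30 were higher and 7 lower, beside 29.3% and 29.6% of 5901 genes. The group was therefore no more shifted than genes in general. Its medians were −0.11 and 0.08, and those of all genes −0.12 and 0.05. Incenp was at 13.17 against 70.8 CPM in CD+Veh and 9.02 against 49.8 in CD+DHT (−2.38 and −2.402), and Pttg1 was at 2021 against 9082 CPM in CD+DHT (−2.17), although the median F3 CD+DHT oocyte held 3870 CPM. Espl1 (−2.07), Nuf2 (1.07) and Dsn1 (1.02) completed the largest differences in CD+Veh, and Dsn1 (1.10) and Bub1 (0.95) those in CD+DHT. Zwilch ran opposite to the tested lineage, with −0.97 and −1.05.

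Between F1 and F2 of the control lineage differences were smaller. Of 31 genes, 4 were past 1.5-fold higher in F2 and 0 lower, beside 16.3% and 6.13% of 6048 genes, with medians of 0.06 for the group and 0.13 for all genes. They were Ttk (67.2 against 44.3 CPM), Zw10 (22.22 against 11.1), Incenp (70.8 against 38.1) and Numa1 (94.0 against 53.2). Zw10 turned to −0.03 between the medians of oocytes. The largest downward were Aurkb (9.98 against 14.9 CPM, −0.56) and Bub3 (131 against 189, −0.53).

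Several measures moved with generation, and their part in these differences was not tested. F3 animals 22 and 26 had 4189060 and 3472956 counts and 7287 and 6788 genes with a count in the median oocyte, while the 13 F2 animals had 9939962 to 36059954 counts. Their cumulus markers summed to 3307 and 2908 CPM, against 529 to 1762 CPM in the F2 animals. Across genes of at least 10 CPM, Spearman's rho between the F3 over F2 fold and the GC content of the transcript was −0.52 in HFHS+Veh (5495 genes; −0.54 over 29 of the group), −0.42 in CD+Veh (5692 genes; −0.42 over 29) and −0.32 in CD+DHT (5550 genes; −0.16 over 30). Genes are not independent and these values share their libraries. Library preparation or sequencing runs are not given by generation, and generation cannot be told apart from them. The animal numbers also conflict with other labels: F3 animal 22 is called F2 in the characteristics and F2 animal 10 is called F3. Pttg1 was at 1555 and 11017 CPM in them, Cenpa at 29.4 and 170 and Nuf2 at 521 and 212, each on the side of its title. Other genes put animal 10 near the F3 animals. Aurkc was at 73.4 CPM in animal 10, 85.0 and 108.8 in F3 animals 22 and 26, and 194 to 204 in the other F2 HFHS+Veh animals. Ckap5 was at 472 CPM in animal 10, against 477 and 425 in F3 and 295 to 312 in the others. Which label is right was not tested.

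With 1 F3 animal left out, the remaining one was assumed to vary like the animals of the F2 groups, and fewer genes passed the edgeR threshold. Without animal 22 there were 6 called genes of the group and 1660 of all genes, and the calls of 8 were lost. Of these, Bub3 (0.82), Cenpe (0.86), Dsn1 (1.06), Numa1 (−1.58), Pttg1 (−1.42) and Spc25 (1.08) stayed near their log2 folds with both animals, whereas Smc1b was at −0.60 and Spc24 at −1.27. Without animal 26 there were 10 and 2633, and the calls of 5 were lost. Of these, Bub3 (1.06), Cenpe (0.89), Numa1 (−1.38) and Spc25 (0.89) stayed near theirs with both animals, and Zwilch was at 0.86. Without the oocytes whose characteristics name another generation there were 8 and 1864. Cenpa, Incenp, Espl1 and Nuf2, or 4 of the 14, were called in each of the 22 alternatives run. Not all of these could change the calls much. Leaving out libraries with many cumulus markers removed no oocyte of these groups and repeated the main fit. Others left out animals of F2 CD+Veh or F2 CD+DHT, which are in the fit but not in the contrast.

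In the wider list 17 of 78 genes rose and 11 fell in F3 HFHS+Veh, beside the 9.91% and 14.7% of all genes tested, or 20.6% and 23.2% of those of at least 10 CPM. Those that rose included Pds5a, a cohesin regulator (log2 fold 3.08), Nedd1, which brings gamma-tubulin to the spindle (2.06), the centromere genes Cenpi (2.01) and Cenpn (1.75), the cohesin acetyltransferase gene Esco2 (1.95), Zwint (1.94) and Stag2 (1.37). The shugoshin genes Sgol2 (1.003) and Sgol1 (0.89), which protect centromeric cohesin, rose too. Those that fell included Cenpq (−2.84), the cohesin loader gene Mau2 (−2.44), Haus8 (−2.37) and Hjurp, the chaperone that deposits Cenpa (−2.35). In the pools Nedd1 was at 1003 against 266 CPM in CD+Veh and 957 against 307 in CD+DHT, and Cenpq at 8.55 against 63.7 and 7.52 against 51.4.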

How the data were processed

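The authors deposited raw counts per gene symbol and an RPKM table of the same 202 libraries, both used here. Per the submitters' processing notes, STAR 2.4.2a, Seurat 2.0 and the build mm10 were used; for the counting program, annotation and strand setting the sources used here state nothing. Of 24582 lines, 92 were ERCC spike-ins (median 0.252% of counts, 0.0280% to 14.33%), which entered neither library sizes nor tests. The comparison of all libraries found 0 identical pairs ( smallest chi-square per degree of freedom 2.29). The 33 genes and the lists were chosen with earlier results of these data known.

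Counts were summed per animal for F2, and CD+Veh, CD+DHT and HFHS+Veh entered 1 edgeR 4.0.16 quasi-likelihood fit (TMM, filterByExpr, R 4.3.3, Benjamini-Hochberg adjusted p under 0.05). The model was also run on simulated counts with planted changes larger than the named F2 estimates of the group. That run does not bear on changes of the size estimated here. SE is the absolute log2 fold over the square root of F. For the F3 against F2 contrast in HFHS+Veh, which was chosen after seeing the data, F3 HFHS+Veh was added to that fit. Other groups were pooled, with log2 of CPM plus 0.5 and no test. Counts without molecular identifiers are not independent molecules. Alternatives used DESeq2 1.42.0, limma 3.58.1, stricter filters, other weights of oocytes and each oocyte or animal left out. The comparisons between generations, their alternatives and the removal of F3 CD+Veh oocyte 21 were added after the data had been seen. F2 HFHS+DHT entered no contrast between groups. It was included in the ranges of the F1 and F2 groups and oocytes that were set beside F3.

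Named genes followed a rule: called genes or, where there were none, the 4 largest log2 folds at 10 CPM in F2; the 2 largest in each direction in pools; the 3 most and least abundant; counterparts of meiosis and mitosis; the Ndc80 complex; and the 3 largest and smallest spreads. Positions are from GENCODE vM21 on GRCm38, promoters from RefSeq on GRCm38.p6. Sharing was counted in 50-base windows. Python 3.11.15, numpy 2.4.6, pandas 2.3.3, scipy 1.17.1 and matplotlib 3.10.9 were used.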

Additional observations from a re-analysis of the deposited data

Results flagged for a closer look

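In groups of 4 or 5 F2 animals, 6 of 90 combinations of gene and group held an animal far from the others of its group by Dixon's criterion, which chance meets in about 1 of 20 groups. In F2 HFHS+Veh, 4 of the 6 concerned animal 10, whose 5 oocytes are called F3 in the characteristics. Aurkc was at 73.4 CPM there and at 194 to 204 in the other 3 animals, Spc24 at 4.09 against 10.99 to 11.8, Cdca8 at 472 against 712 to 741 and Ckap5 at 472 against 295 to 312. Birc5 was at 214 CPM in F2 HFHS+Veh animal 19 and at 159 to 164 in the other 3. Mad2l1 was at 1680 CPM in F2 CD+DHT animal 9 and at 994 to 1182 in the other 4.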

How the results depend on the processing

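The median log2 fold over the 28 genes measured in F3 CD+DHT against CD+Veh turned from −0.05 to 0.15 with the mean CPM of oocytes, 0.13 with their median CPM and 0.13 with the mean RPKM. That of CD+Veh F3 against F2 was −0.15 to 0.0902 with each oocyte left out, the highest without F2 CD+Veh oocyte 4 of animal 3. DESeq2 called 2 genes (CD+DHT against CD+Veh), 1 (HFHS+Veh against CD+Veh) and 1 (CD+DHT against HFHS+Veh) in F2. Medians under limma were −0.19 (CD+DHT) and −0.24 (HFHS+Veh) against CD+Veh, where those of all genes were −0.27 and −0.13; without oocytes naming another generation those involving HFHS+Veh were −0.16 against CD+Veh and 0.23 from CD+DHT. For HFHS+Veh F3 against F2, leaving those oocytes out gave 1864 genes and 8 of the group; leaving out each animal gave 1660 to 3553 genes and 6 to 19 of the group; and the median became 0.14 with DESeq2 size factors in edgeR and 0.14 with DESeq2. The largest number, 19, came without F2 HFHS+Veh animal 10. By median CPM of oocytes, Plk1 in F3 HFHS+Veh against CD+Veh turned to 0.48 and Zw10 in CD+Veh F2 against F1 to −0.0293. The cause was not tested. Of the other comparisons of medians and counts, 124 stayed within 1 SD between animals (0.14) or 1.5 times and 417 did so with 1 oocyte or animal left out. No paired analysis was possible because the F2 groups share no animal number and the F1 and F3 comparisons come from no test. Depth limits Rec8, Stag3, Spc24, Aurkb, Zw10, Mad1l1 and Zwilch, which had a median of 14.7 CPM or less per oocyte.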

Other observations

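F2 HFHS+DHT, which named no animal and whose hormone label was contradicted in all 5 oocytes, entered no contrast between groups. It was part of the F1 and F2 ranges set beside F3. Its pooled levels were 9441 CPM for Pttg1, 168 for Cenpa, 74.2 for Incenp, 189 for Birc5, 138 for Espl1, 551 for Dsn1 and 255 for Nuf2. Incenp was the highest pooled value among the 11 groups there, and Dsn1 the lowest. The 33 genes summed to 18796 to 20752 CPM in these oocytes, against medians of 13061 to 20044 CPM in the other groups.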
